A study of Mus musculus with 39 samples.

Results

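The 10 genes described here build the meiotic chromosome axis and the synaptonemal complex, the protein zipper that holds homologous chromosomes together in meiotic prophase. They were taken by symbol from the gene tables and are Sycp1, Syce1, Syce2, Syce3, Tex12, Sycp2, Sycp3, Hormad1, Hormad2 and Smc1b, 10 of the 21561 Ensembl genes that both deposited tables list. All 10 passed the filter on low counts in every comparison. Testis RNA was sequenced from male mice on the C57BL/6J background in 8 groups of 3 libraries that the labels call biological replicates. WT and INSL3-KI testes were taken at P8, P23 and P40 (postnatal days), and INSL3-KO testes at P8 and P23. In INSL3-KI mice the minke whale INSL3 cDNA replaced the mouse coding sequence at the native locus, under the mouse promoter, and the neomycin cassette was removed with Cre. INSL3-KO mice carry a knockout of the gene. INSL3 is a hormone that Leydig cells make and that acts on the gubernaculum, the cord that draws the testis down. The study asked how a whale form of this hormone, or its loss, affects testis descent and the testis.

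In meiotic prophase each pair of sister chromatids is organised along a protein axis. SMC1B is a meiosis-specific cohesin subunit, SYCP2 and SYCP3 form the axial cores that become the lateral elements, and HORMAD1 and HORMAD2 bind unsynapsed axes. SYCP1 forms the transverse filaments that bridge the axes, and SYCE1, SYCE2, SYCE3 and TEX12 belong to the central element in the middle of the zipper. In the mouse testis germ cells are still mostly spermatogonia at the end of the first postnatal week, spermatocytes appear during the following days, and spermatids are present before sexual maturity.

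The genes lie on separate chromosomes of GRCm38 for the most part, with Sycp1 (chr3:102818499-102936100) and Hormad1 (chr3:95559677-95587671) sharing chromosome 3, and Syce3 and Smc1b sharing chromosome 15. Of the 10 genes, 3 overlap a protein-coding gene on the opposite strand. Sycp3 (chr10:88459569-88473236) lies within the span of Chpt1, Tex12 (chr9:50556819-50561325) within that of Il18, and Syce2 (chr8:84872111-84888221) shares 1829 bases with Gcdh. Whether the counting used strand is not given in the sources used here, so reads of these pairs cannot be told apart. RefSeq promoter windows, from 250 bases before to 50 after each start, were searched on both strands for 4 motifs. The palindromic E-box CACGTG was found for 5 of the 10 genes (Sycp1, Sycp3, Syce2, Tex12 and Hormad1) and for 8.09% of 27025 genes. The E2F-type motif GCGGGAA was found for Sycp3, Syce2, Tex12, Hormad1 and Smc1b and for 5.29% of all genes. The STRA8-MEIOSIN motif CNCCTCAG was found for Sycp1, Syce2, Tex12 and Hormad2 (4 of 10, against 9.12%), and the MYB core AACNGNC for 6 of 10, against 36% of all genes. A match of letters is no evidence that a factor binds there. The 160 bases before the most upstream annotated start are shown for 5 genes that hold the E-box or the E2F-type motif (RefSeq, GRCm38.p6, read 5′ to 3′ on the gene's strand). These include the gene with the largest rise at P8 (Hormad1) and the gene that fell least in INSL3-KO testes at P23 (Tex12). Syce2, which holds both motifs and had the smallest rise at P8, is not shown. Capitals mark the E-box and the E2F-type motif in either orientation. They stand at chr3:102936101-102936260, minus strand (Sycp1), chr3:95559517-95559676, plus strand (Hormad1), chr10:88459409-88459568, plus strand (Sycp3), chr9:50561326-50561485, minus strand (Tex12), and chr15:85131965-85132124, minus strand (Smc1b).
Sycp1: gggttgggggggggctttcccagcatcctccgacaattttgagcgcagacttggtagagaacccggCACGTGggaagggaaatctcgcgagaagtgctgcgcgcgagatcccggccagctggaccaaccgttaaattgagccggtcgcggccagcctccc
Hormad1: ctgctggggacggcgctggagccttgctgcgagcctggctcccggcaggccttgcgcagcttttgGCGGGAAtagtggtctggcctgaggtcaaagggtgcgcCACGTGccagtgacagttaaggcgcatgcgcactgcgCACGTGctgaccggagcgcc
Sycp3: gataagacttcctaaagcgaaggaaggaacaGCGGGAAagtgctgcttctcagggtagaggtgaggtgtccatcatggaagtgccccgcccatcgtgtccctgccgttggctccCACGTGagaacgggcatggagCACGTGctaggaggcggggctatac
Tex12: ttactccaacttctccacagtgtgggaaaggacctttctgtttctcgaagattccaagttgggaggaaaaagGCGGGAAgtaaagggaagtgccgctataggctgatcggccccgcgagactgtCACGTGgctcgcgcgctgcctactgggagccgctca
Smc1b: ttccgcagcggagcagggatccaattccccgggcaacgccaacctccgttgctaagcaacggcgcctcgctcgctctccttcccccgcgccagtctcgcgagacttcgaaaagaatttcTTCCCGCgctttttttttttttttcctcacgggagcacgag

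The 24 testis libraries held 33000204 to 42629270 counts (median 38405047), of which the 10 genes took 0.0114% to 0.189%. Levels are given below as CPM, counts scaled to the effective library size by TMM over the 24 testis libraries, or as FPKM where genes are compared with each other, since FPKM is also scaled by transcript length. Mouse Insl3 counts were 2722 to 3524 in WT at P8 and at least 20183 in WT at P23 and P40, 15 to 33 in INSL3-KI at P8, 52 to 84 at P23 and 443 to 511 at P40. In INSL3-KO they were 0 to 5 at P23 but 613 to 906 at P8, so the latter are called the libraries labelled INSL3-KO at P8. As for tissue markers, 14 Sertoli cell genes summed to 2322 CPM or more in every testis library. The sum is not given for another tissue, so it does not test the tissue label. The testis libraries stand in 2 deposited tables, the first with INSL3-KI and with WT at P8 and P40, and the second with INSL3-KO and with WT at P23. P8 INSL3-KI versus WT, P23 INSL3-KO versus WT and P40 INSL3-KI versus WT lie within a table. In the others named below as across tables, table and genotype, or table and age, cannot be told apart. In 3 INSL3-KI groups 1 library stood apart in a list of 11 pachytene spermatocyte genes: replicate 2 at P8 (1385 CPM in sum, against 142 and 169), replicate 3 at P23 (3371 against 7438 and 7889) and replicate 1 at P40 (3476 against 549 and 556). Counts of called genes and balance values of these groups against WT are also given without that library. The share of all genes called beside a count comes from the fit with every library, and none is given for fits without a library.

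In WT testes all 10 genes rose from P8 to P23 and changed by less than 2-fold from P23 to P40. Sycp1, the transverse filament gene, read 43.4, 25.2 and 21.2 CPM in the 3 WT libraries at P8, 435, 372 and 399 CPM at P23 and 228, 260 and 249 CPM at P40. Syce1, a central element gene, went from 17.6, 11.2 and 8.78 CPM at P8 to 490, 531 and 561 CPM at P23 and stayed at 530, 489 and 443 CPM at P40. The P8 libraries lay far below those of the older ages for both genes, and Syce1 alone of this pair kept its P23 level at P40. Between P8 and P23, which is across tables, 10 of 10 genes were called higher (edgeR's quasi-likelihood test, adjusted p under 0.01 over all genes and at least 2-fold), where 32.8% of 16908 genes were called higher. The log2 fold changes ran from 2.47 ± 0.28 (SE; adjusted p = 9.84e-05) for Tex12 to 5.35 ± 0.27 (adjusted p = 8.67e-07) for Syce1, with a median of 4.10 against 0.01 over all genes. Within the first table, P40 against P8, 10 of 10 were again called higher (31.9% of all genes were), with a median of 3.40. From P23 to P40, across tables, 0 of 10 were called by edgeR and 0 by DESeq2, while limma on FPKM called 1 lower, and 4.64% of 16438 genes were called in either direction by edgeR. By edgeR 8 of the 10 had an unadjusted p under 0.05, as had 8431 of all 16438 genes. Those 8 also had an adjusted p under 0.01, with log2 fold changes between -0.42 (Hormad2) and -0.87 (Syce3). Syce1 (-0.07) and Smc1b (-0.11) did not pass.

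Per length of transcript, the order of the genes differed between ages in WT. At P8 Syce2 had the highest mean, 20.4 ± 4.44 FPKM (SD, n = 3), followed by Sycp3 at 13.5 ± 6.96 FPKM, and every neighbouring pair in the order overlapped. At P23 the order was led by Syce1 (214 ± 13.8 FPKM), Sycp3 (172 ± 9.63 FPKM) and Hormad1 (94.3 ± 5.22 FPKM), whose libraries did not overlap each other. Syce2, Sycp1, Smc1b, Syce3 and Sycp2 followed between 77.4 and 52.3 FPKM, of which Syce2 overlapped Sycp1, and Smc1b, Syce3 and Sycp2 overlapped each other in turn. Tex12 (23.4 ± 1.31 FPKM) and Hormad2 (10.6 ± 0.924 FPKM) were lowest. The highest gene stood 11.7 times above the lowest at P8 and 20.2 times at P23. At P40 Syce1 (217 ± 11.9 FPKM) again led and Hormad2 (8.71 ± 0.767 FPKM) was last. The FPKM of Tex12 implies a transcript length of 955 bases in the table of WT at P8 and P40 and 653 bases in that of WT at P23, so that its FPKM is not comparable between P23 and the other ages of WT.

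**Figure D1:**
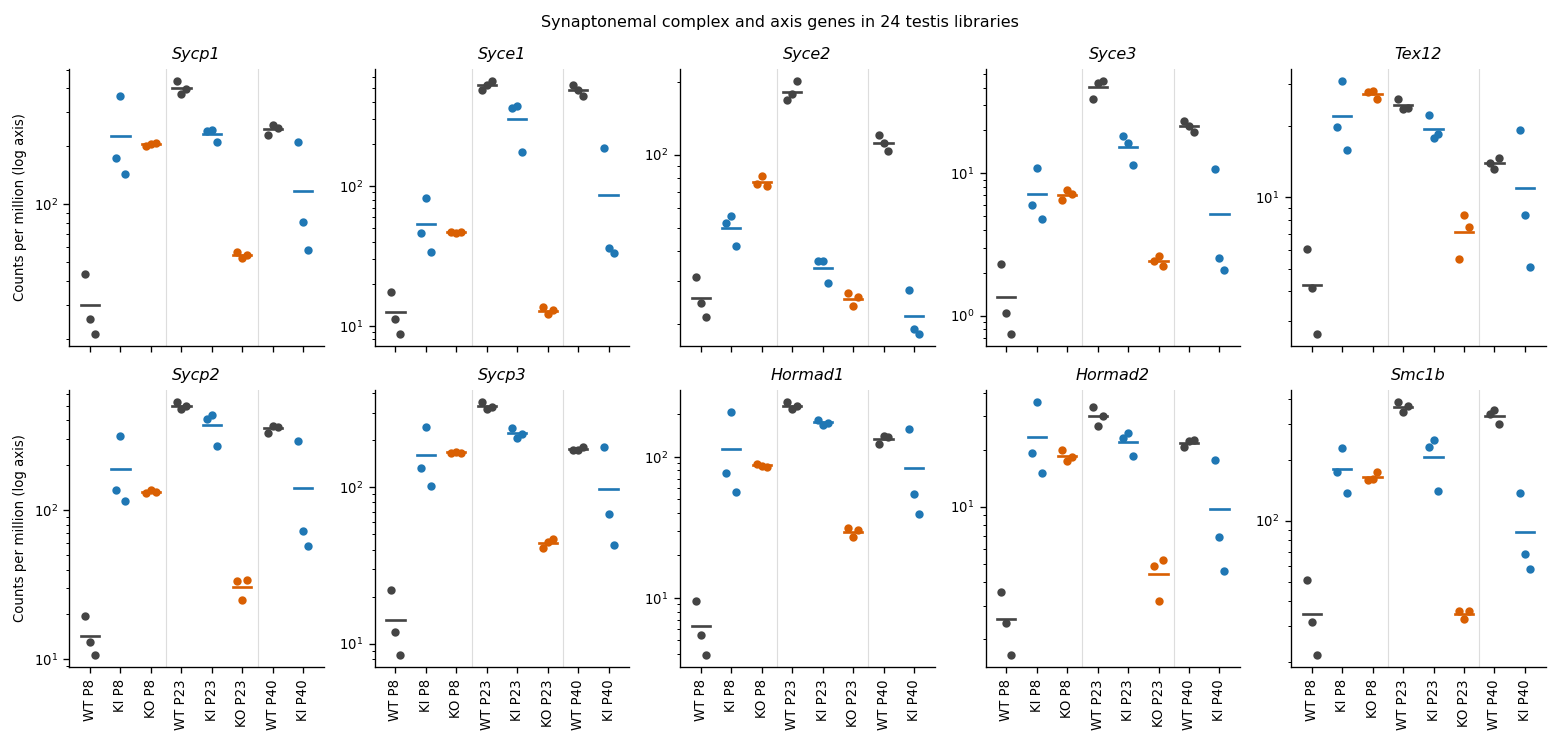
CPM (log axis, TMM scaling over 24 testis libraries) of each gene in the 8 testis groups, with 1 point per library and a bar at the group mean. Among the WT libraries those of P8 are lowest for all 10 genes, the mutant libraries at P8 lie above them, and INSL3-KO libraries at P23 lie far below WT at P23. In INSL3-KI at P40, replicate 1 (the left point) lies above the other replicates for every gene.

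At P8 these genes were higher in both mutants than in WT. Hormad1, which marks unsynapsed axes, read 9.56, 5.44 and 3.96 CPM in WT, 77.2, 208 and 56.0 CPM in INSL3-KI and 89.4, 86.0 and 85.1 CPM in the libraries labelled INSL3-KO at P8. Every mutant library lay above every WT library, and replicate 2 of INSL3-KI was the highest of all. The log2 fold change was 4.22 ± 0.61 (SE; adjusted p = 0.00563) in INSL3-KI and 3.81 ± 0.29 (adjusted p = 7.21e-05) in the libraries labelled INSL3-KO, an 18.7-fold and a 14-fold difference. In INSL3-KI 9 of 10 genes were called higher, where 3.03% of 15702 genes were, and in the libraries labelled INSL3-KO 10 of 10, where 5.44% of 15723 genes were. The medians over the 10 genes were 2.72 and 2.75, against 0.00 and -0.02 over all genes. Both comparisons use the same WT libraries, and the second is across tables. In bulk tissue more cells of a type and more RNA per cell cannot be told apart, nor can fewer cells and less RNA.

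Among the axis genes at P8, Sycp3 read 21.9, 11.8 and 8.50 CPM in WT, 134, 245 and 102 CPM in INSL3-KI and 167, 168 and 166 CPM in the libraries labelled INSL3-KO. Both mutant groups lay above WT without overlap, while the INSL3-KI libraries spanned those labelled INSL3-KO. The log2 fold changes from WT were 3.56 ± 0.47 (adjusted p = 0.00475) and 3.60 ± 0.32 (adjusted p = 0.000127). Sycp2, its partner in the lateral element, differed by 3.77 ± 0.45 (adjusted p = 0.00434) and 3.23 ± 0.21 (adjusted p = 3.57e-05). Hormad2 differed by 3.25 and 2.90, and the cohesin gene Smc1b by 2.44 and 2.27. Smc1b started from a higher level than Hormad2, 50.6, 31.6 and 21.8 CPM in WT, and reached 175, 229 and 137 CPM in INSL3-KI and 158, 160 and 174 CPM in the libraries labelled INSL3-KO.

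The transverse filament gene Sycp1 read 173, 364 and 143 CPM in INSL3-KI and 201, 206 and 208 CPM in the libraries labelled INSL3-KO at P8, all above its WT values given above, with log2 fold changes of 2.98 ± 0.43 (adjusted p = 0.00585) and 2.80 ± 0.25 (adjusted p = 0.000132). Of the central element genes, Syce2 read 31.4, 24.3 and 21.4 CPM in WT, 52.0, 55.8 and 41.9 CPM in INSL3-KI and 75.8, 81.9 and 74.2 CPM in the libraries labelled INSL3-KO. Its groups did not overlap each other, but its log2 fold changes of 1.02 ± 0.17 (adjusted p = 0.00807) and 1.61 ± 0.14 (adjusted p = 0.000112) were the smallest of the 10 genes. Syce1 differed by 2.15 and 1.92 and Tex12 by 2.43 and 2.70. Syce3 differed by 2.46 ± 0.53 in INSL3-KI and missed the threshold there (adjusted p = 0.0153), with 32 to 92 counts in the WT libraries, and by 2.40 ± 0.41 in the libraries labelled INSL3-KO (adjusted p = 0.00219).

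The call in INSL3-KI at P8 rests on few libraries. Without INSL3-KI replicate 2, 7 of the 10 genes were called, with log2 fold changes of 0.95 to 3.48. Without INSL3-KI replicate 1 or 3, or without WT replicate 2 or 3, 0 were called at this threshold. The log2 fold changes nevertheless stayed between 0.93 and 4.54 there, and the adjusted p between 0.0118 and 0.0713. The lists of other meiotic genes described below also fell to 0 in these fits. The share of all genes called in them is not given here. Without WT replicate 1, which held the highest WT level of all 10 genes, 7 were called and the median was 3.17. In the libraries labelled INSL3-KO 9 or 10 genes were called whichever library was left out.

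Set directly against each other at P8, across tables, INSL3-KI and the libraries labelled INSL3-KO gave 0 called genes of 10 by edgeR, DESeq2 and limma, where 3.92% of 15728 genes were called in either direction by edgeR. Of the 10 genes only Syce2 had an unadjusted p under 0.05 by edgeR, as had 7013 of all 15728 genes. Syce2 was lower in INSL3-KI by 0.61 ± 0.11 on the log2 scale (adjusted p = 0.00751), under the 2-fold threshold. Syce2 had 450 to 505 counts in the gubernaculum libraries labelled INSL3-KO at P8, which stand in the second table, and 103 to 225 counts in the P8 gubernaculum libraries of the first table. The part of the table in the testis difference was not tested.

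**Figure D2:**
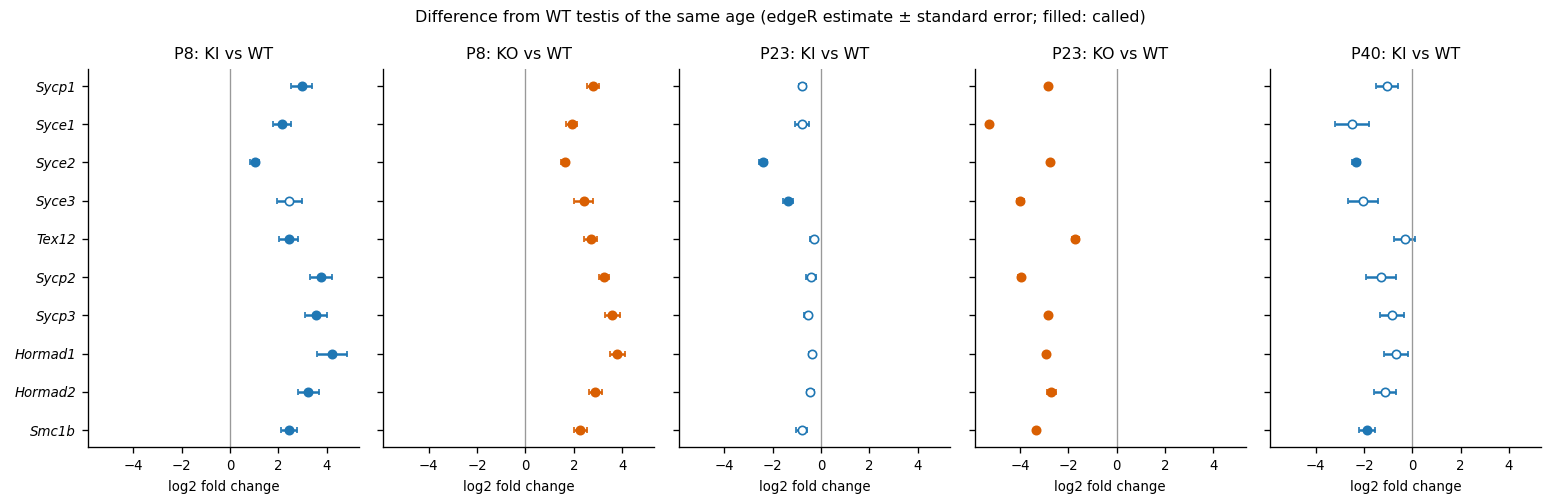
Log2 fold change from WT of the same age (edgeR estimate, bars ± SE, 3 libraries per group) for each gene in 5 comparisons. Filled points have an adjusted p under 0.01 and at least a 2-fold change. All 10 genes lie right of 0 in both mutants at P8 and left of it at P23 and P40 with TMM scaling (by library size alone Sycp2, Tex12, Hormad1 and Hormad2 in INSL3-KI at P23, and Tex12 at P40, lie right of it), and 10 of 10 are filled in INSL3-KO at P23 against 2 of 10 in INSL3-KI.

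At P23 INSL3-KO testes held less RNA of all 10 genes than WT. Syce1 showed the largest difference, with 490, 531 and 561 CPM in WT and 13.6, 12.1 and 12.9 CPM in INSL3-KO, a log2 fold change of -5.30 ± 0.07 (adjusted p = 1.55e-12) or a 39.3-fold fall. Tex12 showed the smallest, with 25.9, 23.5 and 23.8 CPM in WT and 5.49, 8.37 and 7.47 CPM in INSL3-KO (-1.71 ± 0.15, adjusted p = 1.97e-06). No INSL3-KO library reached a WT library for any of these genes. Within 1 table, 10 of 10 genes were called lower, where 33.4% of 16732 genes were, and the median was -2.88, against 0.06 over all genes. Among the others of the central element the log2 fold change was -3.99 for Syce3 and -2.78 for Syce2. Of the axis genes, Sycp2 stood at -3.97, Smc1b at -3.34, Hormad1 at -2.91, Sycp3 at -2.84 and Hormad2 at -2.71, and the transverse filament gene Sycp1 at -2.82.

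In INSL3-KI testes at P23, across tables, the same genes lay closer to WT. Sycp1 read 239, 242 and 211 CPM, against 435, 372 and 399 CPM in WT, a log2 fold change of -0.78 ± 0.14 (adjusted p = 0.00626) that missed the fold threshold. Syce2 read 36.3, 36.3 and 29.6 CPM, against 168, 178 and 201 CPM in WT and 26.9, 23.7 and 25.8 CPM in INSL3-KO. The Syce2 values of INSL3-KI thus lay far below WT and near INSL3-KO. The log2 fold change from WT was -2.40 ± 0.15 (adjusted p = 0.000272), a 5.29-fold difference that was called under every alternative and without any 1 library. Syce3 (18.2, 16.4 and 11.5 CPM, against 33.2, 43.1 and 44.2 CPM) was the other called gene, at -1.37 ± 0.21 (adjusted p = 0.00388). In this comparison WT stands in the second table, the table whose gubernaculum libraries held the higher Syce2 counts given above, and the part of the table was not tested. Thus 2 of 10 were called lower, where 11.8% of 16603 genes were, with a median of -0.67 and all 10 estimates negative by TMM, of which Sycp2, Tex12, Hormad1 and Hormad2 turned positive by library size alone (0.025 to 0.16). Without INSL3-KI replicate 3, the library that stood apart, 2 were called and the median was -0.53. Without INSL3-KI replicate 1 or any 1 WT library, 1 was called.

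Between the mutants at P23, 9 of 10 genes were called, all with the higher level in INSL3-KI, where 25.2% of 16379 genes were called higher, again across tables. The log2 differences ran from 1.45 ± 0.22 (Tex12, adjusted p = 0.00156) to 4.57 ± 0.33 (Syce1, adjusted p = 0.000159). Syce1 read 361, 375 and 177 CPM in INSL3-KI, against 13.6, 12.1 and 12.9 CPM. Hormad1 read 182, 169 and 174 CPM, against 31.2, 26.9 and 30.1 CPM. Syce2 was the exception, at 0.42 ± 0.15 (adjusted p = 0.0385). The 9 calls held without any 1 library.

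At P40, within the first table, INSL3-KI libraries spread widely. Sycp1 read 211, 81.0 and 58.1 CPM in INSL3-KI and 228, 260 and 249 CPM in WT, and Syce1 188, 35.9 and 33.3 CPM, against 530, 489 and 443 CPM. Replicate 1 was the highest INSL3-KI library for all 10 genes. For Sycp3 (182, 67.7 and 42.7 CPM, against 172, 175 and 181 CPM) it lay just above every WT library. It also lay above every WT library for Hormad1 (156 CPM, against 124, 141 and 139 CPM) and Tex12 (19.2 CPM, against 13.9, 13.2 and 14.6 CPM). Syce2 and Smc1b were called lower, Syce2 at -2.32 ± 0.18 (adjusted p = 0.000247) with 27.6, 19.0 and 18.2 CPM against 120, 112 and 103 CPM, and Smc1b at -1.87 ± 0.33 (adjusted p = 0.00275). That is 2 of 10, where 22.1% of 16677 genes were called lower. By TMM all 10 estimates were negative (Tex12 was positive by library size alone), with a median of -1.22, and Syce1 had the largest (-2.49 ± 0.71, adjusted p = 0.0182). Without replicate 1 of INSL3-KI, 9 of 10 were called lower, Tex12 being the exception at -0.96 (adjusted p = 0.00474), and the median was -2.08. The 22.1% belongs to the fit with every library, and the share of all genes called without replicate 1 is not given here. Without INSL3-KI replicate 2 or any 1 WT library, 1 was called. Tex12 stood at -0.32 by TMM and 0.26 by library size alone.

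Over age the mutants took different courses. In INSL3-KI 0 of 10 genes were called between P8 and P23 within the first table, where 9.23% of 16412 genes were called in either direction. There 3 of the 10 had an unadjusted p under 0.05 by edgeR, as had 9144 of all 16412 genes. DESeq2 called 1 of the 10 and limma 2. Syce1 showed the largest difference, from 45.9, 81.5 and 33.6 CPM to 361, 375 and 177 CPM (2.36 ± 0.44, adjusted p = 0.0107), and Syce2 went the other way (-0.69 ± 0.17, adjusted p = 0.0202). Without INSL3-KI replicate 3 of P23 1 was called higher, and without replicate 2 of P8 2 were. From P23 to P40 in INSL3-KI, 0 of 10 were called by edgeR, DESeq2 and limma, and 0% of all 16328 genes by edgeR, although 7615 genes, 3 of the 10 among them, had an unadjusted p under 0.05. DESeq2 called 875 genes lower and 301 higher there, and limma 0. All 10 estimates were negative there, between -0.65 and -1.84. In INSL3-KO, within the second table, 10 of 10 were called lower at P23 than at P8, where 11.7% of 15773 genes were. Smc1b fell from 158, 160 and 174 CPM to 35.6, 32.7 and 35.9 CPM (-2.23 ± 0.05, adjusted p = 2.24e-12), the largest of the 10 falls, and Syce3 fell by 1.53 ± 0.17 (adjusted p = 3.92e-06), the smallest. This comparison starts from the libraries labelled INSL3-KO at P8, which kept part of their Insl3.

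Whether the difference from WT itself changed with age was tested with an interaction term. The INSL3-KI difference was lower at P40 than at P8 for 10 of 10 genes within the first table, where 22.5% of 17354 genes were called lower, with differences of -2.83 (Tex12) to -5.15 (Sycp2) on the log2 scale. From P8 to P23, across tables, it was lower for 10 of 10 (9.63% of 17419 genes), with differences of -2.75 (Tex12) to -4.61 (Hormad1). In both, 10 of 10 were called whichever library was left out. From P23 to P40, also across tables, 0 of 10 were called by edgeR and by DESeq2 (2.85% of 17191 genes were called in either direction). An unadjusted p under 0.05 by edgeR held for 1 of the 10 and for 7536 of all 17191 genes. Without INSL3-KI replicate 1 of P40, 7 of the 10 were called lower. The INSL3-KO difference was lower at P23 than at P8 for 10 of 10, across tables (27.3% of 17485 genes), with differences of -4.41 (Syce2) to -7.24 (Syce1).

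The 10 genes did not move as a block. Their balance was described by the log2 CPM of each gene minus the mean log2 CPM of the other 9 in the same library, which library size and scaling do not change. With 3 libraries against 3 the smallest two-sided p of an exact permutation test is 0.1, so the shifts are given with the overlap of the libraries and no call. Syce2 stood above the mean of the other 9 in WT at P8 (1.65 ± 0.32, SD) and below it in INSL3-KI at P8 (-0.33 ± 0.48), a shift of -1.98, or -1.71 without replicate 2 of INSL3-KI. It was shifted by -1.30 in the libraries labelled INSL3-KO at P8, by -1.74 in INSL3-KI at P23 (-1.78 without replicate 3) and by -0.77 at P40, with no overlap between mutant and WT libraries in any of these, but by 0.52 in INSL3-KO at P23. The P40 shift of Syce2 was -0.36 without replicate 1 of INSL3-KI, which read -1.57 where the other replicates read -0.51 and -0.13. Syce1 was shifted by -2.28 in INSL3-KO at P23 (-0.43 ± 0.07 against 1.85 ± 0.12) and by -1.45 in INSL3-KI at P40 (-1.73 without replicate 1), and by -0.01 in INSL3-KI at P23, where the libraries overlapped (0.23 without replicate 3, without overlap). Tex12 went the other way, with shifts of 1.67 in INSL3-KO at P23 and 1.25 in INSL3-KI at P40 (1.30 without replicate 1), without overlap. At P8 Hormad1 showed the largest upward shift in both mutants, 1.42 in INSL3-KI (1.18 without replicate 2) and 1.22 in the libraries labelled INSL3-KO, from -0.68 ± 0.09 in WT. Between P8 and P23 of INSL3-KO the balance shifted by no more than -0.40 (Smc1b) to 0.37 (Syce3), whereas from P8 to P23 in WT, across tables, it shifted by -1.78 (Tex12) to 1.40 (Syce1). On FPKM, in which the transcript length implied for Tex12 differs between the tables, the Tex12 shift in WT was -1.18 and the lowest was that of Syce2 (-1.55).

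**Figure D3:**
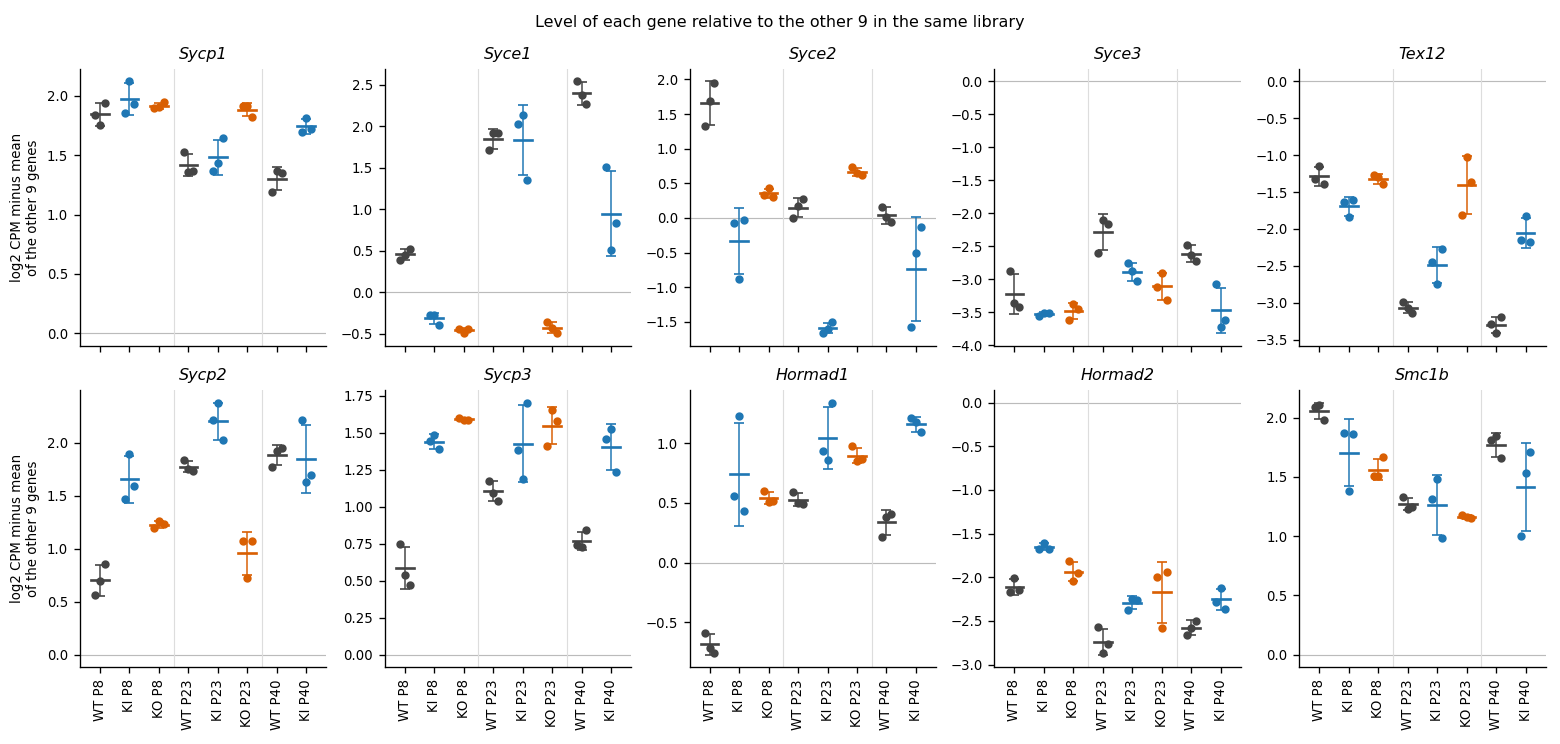
Log2 CPM of each gene minus the mean log2 CPM of the other 9 genes in the same library, by testis group, with 1 point per library and bars at the mean ± SD (n = 3). Syce2 lies lower in INSL3-KI than in WT at all 3 ages, Syce1 lies near its P8 level in INSL3-KO at P23, and Tex12 lies higher in INSL3-KO at P23 and in INSL3-KI at P40 than in WT.

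Per length, the order in INSL3-KO at P23 ran from Sycp3 (37.7 ± 2.83 FPKM), Hormad1 (19.7 ± 1.26 FPKM) and Syce2 (18.9 ± 1.70 FPKM) to Hormad2 (2.37 ± 0.467 FPKM), with Syce1 sixth at 8.52 ± 0.37 FPKM, where WT had it first. Sycp3 and Hormad1 also led in the libraries labelled INSL3-KO at P8 (172 ± 1.95 and 70.6 ± 2.35 FPKM), with Syce1 seventh at 37.3 ± 0.527 FPKM. Hormad1 and Syce2 overlapped in INSL3-KO at P23, as did Hormad1 and Sycp1 at P8.

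The overlapping genes were read beside their partners. Gcdh, a mitochondrial dehydrogenase gene that shares bases with Syce2, had 215 to 243 counts in WT at P23, 296 to 732 in INSL3-KI and 1199 to 1552 in INSL3-KO, and it was called higher in INSL3-KO (1.92 ± 0.10, adjusted p = 2.77e-08) and in INSL3-KI at P40 (1.74 ± 0.17, adjusted p = 0.000403), opposite in direction to Syce2. Il18, a cytokine gene whose span holds Tex12, had 35 to 49 counts in WT and 151 to 206 in INSL3-KO at P23 (1.46 ± 0.24, adjusted p = 0.000261), against 206 to 364 counts of Tex12 in INSL3-KO. Chpt1, a choline phosphotransferase gene around Sycp3, differed by -1.76 ± 0.13 in INSL3-KI at P23 (adjusted p = 0.000435), where Sycp3 differed by -0.55 ± 0.14. The part of reads from the other strand in these values was not tested.

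Other genes of meiotic prophase were taken as lists. Of 11 tested genes of the axis, its cohesins and their partners, 6 were called higher in INSL3-KI at P8 and 8 in the libraries labelled INSL3-KO, with medians of 1.64 and 1.62, where 3.03% and 5.44% of all genes were called higher. Over the 11 genes the log2 fold changes ran from -0.71 to 3.07 in INSL3-KI, with 0 called lower. In the libraries labelled INSL3-KO they ran from -0.65 to 2.71, also with 0 called lower. Among the 11 were Rec8, the meiotic cohesin kleisin (1.64 and 1.62), Stag3, a meiotic cohesin subunit (1.92 and 1.40), and Six6os1, another central element gene (1.96 and 2.17). These were named after their values were seen. Of 21 tested recombination genes, 11 and 13 were called higher and 0 lower at P8, with Dmc1, the meiotic strand exchange recombinase, at 2.80 and 2.57. Of 10 meiotic entry regulators, 2 and 5 were called higher. The INSL3-KI counts of these 3 lists became 4 of 11, 12 of 21 and 2 of 10 without INSL3-KI replicate 2, and 6 of 12, 10 of 21 and 6 of 10 without WT replicate 1. Each was 0 without INSL3-KI replicate 1 or 3 or WT replicate 2 or 3. Stra8, which is needed for meiotic entry, differed by 1.25 (adjusted p = 0.0471) in INSL3-KI and 1.80 (adjusted p = 0.00438) in the libraries labelled INSL3-KO, and Meiosin, its partner, by 4.17 (adjusted p = 0.00341) and 2.52 (adjusted p = 0.000617). The summed level of 10 undifferentiated spermatogonia genes was 298 to 376 CPM in WT at P8, 246 to 274 CPM in INSL3-KI and 200 to 209 CPM in the libraries labelled INSL3-KO, with 0 of 10 called in INSL3-KI and 3 lower in the latter, where 8.37% of all genes were called lower. In the same groups 8 differentiating spermatogonia genes, some also in the meiotic entry list, summed to 588 to 768, 607 to 751 and 689 to 719 CPM. Their log2 fold changes ran from -1.83 to 5.09 in INSL3-KI and from -1.75 to 4.92 in the libraries labelled INSL3-KO. The pachytene list summed to 87.0 to 92.0 CPM in WT at P8 and 134 to 140 CPM in the libraries labelled INSL3-KO. Genes of Leydig cells, which make INSL3, summed to 730 to 855 CPM in WT at P8, 313 to 347 CPM in INSL3-KI and 524 to 539 CPM in the libraries labelled INSL3-KO, with 3 of 6 called lower in INSL3-KI (3.25% of all genes were) and 2 of 6 in the latter. The INSL3-KI count was 2 without INSL3-KI replicate 2, 1 without WT replicate 1 and 0 without any other 1 library.

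At P23 in INSL3-KO, 4 of the 11 axis and cohesin genes were called lower and 1 higher, with a median of -0.33, and 15 of 21 recombination genes lower, with a median of -1.71, where 33.4% of all genes were called lower. Stag3 stood at -4.02 and Rec8 at -1.18 on the log2 scale, while Six6os1 differed by -0.33 (adjusted p = 0.00525) and was not called. In INSL3-KI at P23, 1 of the 11 and 1 of the 21 were called lower (11.8% of all genes were), Rec8 (-1.22, adjusted p = 0.00128) and Spata22, a recombination gene (-3.52, adjusted p = 0.000228). Without INSL3-KI replicate 3 each count was again 1. At P40 in INSL3-KI, 2 of the 11 and 1 of the 21 were called lower (22.1% of all genes were). Without replicate 1 the counts were 3 and 12, and the share of all genes in that fit is not given here. The lists of other cell types moved with these comparisons. Sertoli cell genes summed to 12675 to 12905 CPM in INSL3-KO at P23, against 2805 to 2932 CPM in WT, with 14 of 14 called higher (31.1% of all genes were), and to 7266 to 10372 CPM in INSL3-KI at P40, against 2322 to 2589 CPM, again with 14 of 14 called higher (25.6% of all genes were). Macrophage genes were called higher in 8 of 8 in both. Differentiating spermatogonia genes summed to 257 to 278 CPM in INSL3-KO at P23, against 1272 to 1330 CPM in WT. At P40 they summed to 357 to 609 CPM in INSL3-KI, against 1133 to 1213 CPM in WT. Pachytene spermatocyte genes were called lower in 11 of 11 in INSL3-KO at P23 (181 to 200 CPM in sum, against 13507 to 13631 CPM), and 12 of 12 spermatid genes were lower there and in INSL3-KI at P40. In INSL3-KI at P23, 10 of 12 spermatid and 3 of 11 pachytene genes were called lower and 5 of 14 Sertoli genes higher (8.81% of all genes were higher), or 12, 4 and 6 without replicate 3. At P8 the spermatid list summed to 7.20 CPM or less in every library. The part of cell composition in the differences of the 10 genes was not tested.

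**Figure D4:**
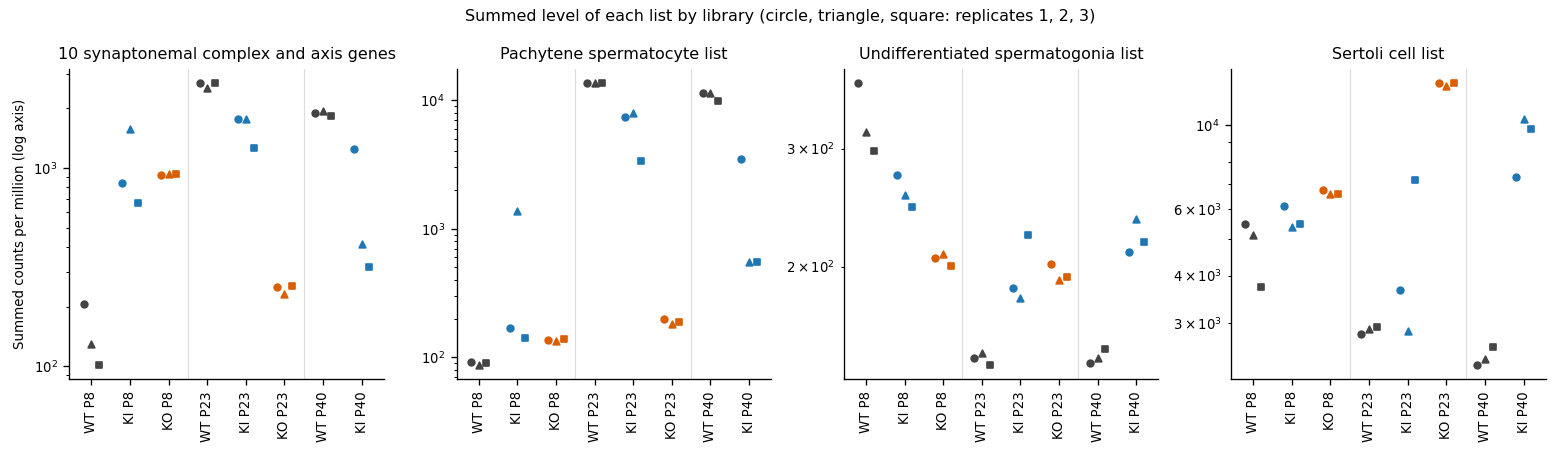
Summed CPM (log axis) of the 10 synaptonemal complex and axis genes and of 3 cell type lists in each testis library, by group, with a marker shape per replicate number. INSL3-KI replicate 2 at P8, replicate 3 at P23 and replicate 1 at P40 stand apart from the other replicates in the pachytene list, and the Sertoli list is highest in INSL3-KO at P23.

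Over the 24 testis libraries, the level of each of the 10 genes was correlated with the mean of the other 9, from r = 0.76 for Syce2, 0.88 for Tex12 and 0.89 for Syce1 to 0.99 for Sycp1. These values describe libraries that differ in age and genotype at once. Among 12383 other genes with a mean of at least 5 CPM, those most like the mean of the 10 were Terb1 (r = 0.97), Terb2, Fbxo15, Majin and Dpep3. Terb1 averaged 1.45 CPM in WT, 23.4 CPM in INSL3-KI and 16.9 CPM in the libraries labelled INSL3-KO at P8, and 61.5, 50.05 and 2.58 CPM at P23. By Spearman's rho 1 of these 5 genes, Dpep3, was again among the first 5. Over the 9 libraries of P8 alone, Mageb16 and Ccdc134 were closest, and over the 6 of P40, Bcl7b and Mlc1.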

How the data were processed

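Per the labels and the study's methods, TRIzol-extracted RNA went into mRNA libraries (Hieff NGS Ultima Dual-mode kit), whose reads were mapped with HISAT2 to GRCm38. The counting program, its strand setting and the annotation release are not given in the sources used here. The values deposited by the authors are unnormalized counts for each gene and FPKM (counts scaled by transcript length and depth), in 2 table pairs, of 27 and 12 libraries. The tables were joined on Ensembl ID (21561 shared genes of 22036 and 43339).

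Counts were tested with edgeR 4.0.16 in R 4.3.3 (quasi-likelihood test, TMM, filterByExpr with a minimum count of 10 and total of 15, only the groups compared in each fit), and p-values were adjusted by Benjamini-Hochberg across every gene in the fit. Calls needed an adjusted p under 0.01 and a change of at least 2-fold, the thresholds of the study. Standard errors are approximate. There were 13 pair comparisons and 4 interaction tests. Alternatives were DESeq2 1.42.0, library size alone, scaling on 14 Sertoli genes, no filter, 1 fit over 8 groups, a replicate block, limma 3.58.1 on log2(FPKM + 1) and log2(FPKM + 0.1), an adjusted p under 0.05 with no fold threshold, and leaving out each library. The code of the fits was checked on simulated data, with the same relative spread between libraries for every gene. That spread was not taken from the INSL3-KI libraries, so the check does not bear on their comparisons. The labels do not say that replicate numbers pair libraries, and in 0 of 13 comparisons did every same-numbered pair correlate above 0.1 (-0.389 to 0.453). Testis libraries held 33000204 to 42629270 counts. The labels and the study call the replicates biological and independent, and whether each was a separate animal is not stated in these words, so p-values measure the spread between these libraries.

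The 10 genes and all lists were chosen with earlier results of these data known. The rule for named genes took the 10 members, Insl3 and, over all testis libraries, those of P8 and those of P40, the 5 genes most like the members' mean (at least 5 CPM, no predicted-gene names), and other genes only as counts of the lists. Outside it, the overlapping genes and Rec8, Stag3, Six6os1, Dmc1, Stra8, Meiosin and Spata22 were chosen for mention after their values were seen. Ankrd31, Shoc1 and Spag6 were not matched and were not analysed here. Gubernaculum libraries were used only for background counts. The balance of a gene is its log2 CPM minus the mean log2 CPM of the other 9 in the same library, recomputed on log2(FPKM + 0.1). Leaving out single libraries for the list counts and the balance was added after seeing the data.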

Additional observations from a re-analysis of the deposited data

Results flagged for a closer look

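The difference from WT changed with age for these genes (edgeR interaction test). In INSL3-KI, from P8 to P23, it was lower for 10 of 10 genes, with log2 differences from -2.75 (Tex12) to -4.61 (Hormad1), and from P8 to P40 for 10 of 10, from -2.83 (Tex12) to -5.15 (Sycp2). In INSL3-KO, from P8 to P23, it was lower for 10 of 10, from -4.41 (Syce2) to -7.24 (Syce1). Of all genes tested, 9.63%, 22.5% and 27.3% were called lower, in the same order of tests. These tests share the WT libraries of P8, and those that use P23 in INSL3-KI or P8 in INSL3-KO reach across tables.

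In the gubernaculum, the counts of some of these genes did not overlap with those of WT of the same age, in either direction. The counts given are unscaled, and the order of the libraries also held per depth. How many of all genes separated from WT in the same way was not counted. The numbers of genes above or below are therefore not read as a result about the 10 genes. Several of the counts lie at or near 0. At P8 in the libraries labelled INSL3-KO (39334842 to 45260372 counts in all, against 35734365 to 37707231 in WT), 3 of 10 genes lay above every WT library and 0 below. Sycp3 had 39 to 50 counts against 5 to 35 in WT, Syce2 had 450 to 505 against 167 to 225, and Hormad2 had 15 to 26 against 4 to 11. At P8 in INSL3-KI, 0 of 10 lay above and 4 below: Sycp1 had 0 to 5 counts against 11 to 44, Syce1 0 to 2 against 16 to 90, Hormad1 0 against 3 to 12 and Smc1b 2 to 13 against 18 to 61. At P23 in INSL3-KI, 3 of 10 lay above and 0 below. Sycp3 had 14 to 131 counts against 4 to 5, Hormad2 had 7 to 52 against 0 to 4, and Smc1b had 9 to 16 against 0 in each WT library. The comparison of the libraries labelled INSL3-KO is across tables.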

How the results depend on the processing

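Of the counts of called genes recomputed under an alternative, 241 stayed within 1.5 times the reported count and 43 did not. At P8 in INSL3-KI versus WT, leaving out 1 library gave 0 to 7 called genes in place of 9, and the replicate block gave 0 (log2 fold changes 1.03 to 4.08, adjusted p 0.0111 to 0.0196 by edgeR). At P23 in INSL3-KI versus WT, 1 gene in place of 2 was called by library size alone, Sertoli scaling, 1 fit over 8 groups, the block and each limma run, 6 at an adjusted p under 0.05, and 1 to 2 without 1 library. At P40 in INSL3-KI versus WT, DESeq2, the joint fit and the looser threshold each gave 4 in place of 2, Sertoli scaling 9, and leaving out 1 library 1 to 9. From P23 to P40 in WT, limma gave 1 in place of 0 in each run and the looser threshold 8. From P8 to P23 in INSL3-KI, DESeq2, library size, the joint fit, the block and limma without a filter gave 1 in place of 0, both filtered limma runs and the looser threshold 2, and leaving out 1 library 0 to 2. From P23 to P40 in INSL3-KI the joint fit gave 3 in place of 0. Between the mutants at P8 the looser threshold gave 1 in place of 0. For the change of the INSL3-KI difference from P23 to P40, leaving out 1 library gave 0 to 7. The block was otherwise within 1.5 times of each count, and the replicate numbers were not found to pair the libraries. The cause of these shifts was not tested.

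Of the log2 fold changes of single genes, 982 kept their direction and side of the threshold, 75 lost and 33 gained a call, and 30 changed sign. None of the 30 was a called value. Between the mutants at P8, leaving out INSL3-KI replicate 2 gave the lowest and replicate 3 the highest value: Sycp1 ran from -0.34 to 0.40, Sycp2 from -0.052 to 0.77, Sycp3 from -0.47 to 0.19, Syce1 from -0.20 to 0.46, Syce3 from -0.37 to 0.26, Hormad1 from -0.35 to 0.72, Hormad2 from -0.088 to 0.57 and Smc1b from -0.047 to 0.31. There Sycp3 read 0.18 with Sertoli scaling and Syce3 -0.040 with the block. At P23 in INSL3-KI versus WT, library size alone gave Sycp2 0.032, Tex12 0.16, Hormad1 0.098 and Hormad2 0.025. There limma on log2(FPKM + 1), with or without a filter, gave Sycp2 0.085, Hormad1 0.16 and Hormad2 0.13, and on log2(FPKM + 0.1) 0.086, 0.16 and 0.14. At P40 in INSL3-KI versus WT, Tex12 read 0.26 by library size, 0.11 in each limma run, and -0.96 to 0.019 without 1 library.

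Of the balance values, 198 moved by less than the spread between libraries under an alternative and 12 by more, all 12 across tables on log2(FPKM + 0.1). Among them Tex12 in INSL3-KI versus WT at P23 went from 0.58 to 0.0046 and in the libraries labelled INSL3-KO versus WT from -0.03 to 0.56.

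Scaling moved the median of all genes. In INSL3-KO at P23 it was 0.06 by TMM, 0.69 by library size and -2.53 on Sertoli genes, and in INSL3-KI at P40 0.09, 0.70 and -2.12. The median of the 10 genes minus that of all genes stayed at -2.93, -2.93 and -2.94, and at -1.31, -1.34 and -1.14. At P8 it was 2.71, 2.70 and 2.84 in INSL3-KI and 2.77, 2.77 and 2.86 in the libraries labelled INSL3-KO, and at P23 in INSL3-KI -0.742, -0.746 and -0.672. The share of all called genes that were higher was, in the same order of scalings, 48.2%, 65.8% and 12.7% in INSL3-KI at P8, 39.4%, 51.3% and 5.73% in the libraries labelled INSL3-KO, 42.6%, 71.3% and 4.88% in INSL3-KI at P23, 48.2%, 61.3% and 0.788% in INSL3-KO at P23, and 53.6%, 72.8% and 0.236% in INSL3-KI at P40. Depth limits Syce3 most, with 32 to 92 counts in WT at P8.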
